A study of Mus musculus with 2 samples.

Results

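The genes described here encode the semaphorins, their plexin and neuropilin receptors, the ephrins and the Eph receptors of the mouse. They were taken by symbol, as every protein-coding gene whose name begins with Sema and a digit, Plxn, Epha, Ephb, Efna or Efnb, with Nrp1 and Nrp2, which gave 53 of 21883 protein-coding genes on chromosomes 1 to 19, X and Y. Accessible regions were assigned to a gene when they overlapped its body or the 10 kb on either side, called its locus below. The data are ATAC-seq peaks, regions where a transposase could insert sequencing adapters into open DNA, from prostate tumor cells of C57BL/6 mice in a study of progression toward neuroendocrine prostate cancer (NEPC). W2 came from early-stage cells after 2 weeks of tamoxifen and M6 from late-stage cells after 6 months of tamoxifen, with 1 library each. Both groups carry the tamoxifen treatment, and there is no untreated group. The sources used here do not give the alleles or age of the mice, or how many animals stand behind each library.

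Semaphorins are secreted or membrane-bound guidance proteins that turn growing axons and migrating cells by binding plexins. The secreted class 3 semaphorins mostly need a neuropilin as a co-receptor, while the membrane-bound classes bind plexins directly. Eph receptors are tyrosine kinases that meet their ephrin ligands on a neighbouring cell, so that signals can run into both cells at the contact. Ephrin-A ligands are held by a lipid anchor and mostly bind EphA receptors, and ephrin-B ligands span the membrane and mostly bind EphB receptors. Both systems are known from the wiring of the nervous system, and they also shape blood vessels and the borders between epithelial compartments. A peak shows open DNA and does not measure the expression of a gene.

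The W2 list held 5735 peaks on these chromosomes and the M6 list 22570, which is 3.94 times as many, although the genome-wide background implied by the peak statistics was 2.96 tags in W2 and 2.65 in M6. With 1 library per time point no difference has a replicate check, no test was made, and the intervals given cover counting error only. The lowest pileup listed, the number of tags over a peak summit, was 12 tags in W2 and 10 in M6, so weaker sites lie outside both lists. Some markers of the labelled tissue were without a peak at their loci. Of 10 luminal prostate genes, 4 had a W2 and 6 an M6 locus peak, and those with none in either included Hoxb13 and Pbsn. The luminal loci held 9 W2 and 12 M6 peaks, but 9 and 0 with equal numbers of peaks per list, and 3 had fewer in M6 (Tmprss2 with 4 and 2, Epcam with 2 and 1, Foxa1 with 1 and 0). Of 9 neuroendocrine genes 1 had a W2 and 6 an M6 locus peak, and those with none included Chga and Foxa2. The neuroendocrine loci held 1 and 19 peaks, or 1 and 4 with equal numbers. Of 5 basal genes 1 and 3 had one, while Krt5 and Krt15 had none. Among all protein-coding genes 29.6% had a W2 and 59.1% an M6 locus peak. The counts of marker genes were not matched for gene length.

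Guidance genes had few accessible regions at the early stage and many more at the late stage, as did the genome as a whole. Their loci held 16 peaks in W2 and 108 in M6. At least 1 peak lay at 13 of the 53 loci in W2 (24.5%, exact binomial 95% interval 13.8 to 38.3%), against 29.6% of all protein-coding genes. In M6 it was 42 of 53 (79.2%, 65.9 to 89.2%), against 59.1% of all. Guidance genes were longer than all genes (medians 36.3 and 17.2 kb), and the shares in this paragraph were not matched for length. Among all genes the M6 share was 47.1% under 20 kb and 70.2% from 20 to 100 kb. It was 81.5% from 100 to 300 kb and 88.8% over 300 kb. All 13 genes with a W2 locus peak also had an M6 one, as did 6260 of the 6473 such genes among all protein-coding genes. A further 29 guidance genes (54.7%) had a locus peak in M6 and none in W2, which held for 30.5% of all genes. That share of all genes also rose with length, from 23.3% under 20 kb to 59.9% over 300 kb. More peaks in M6 than in W2 were found at 37 loci (69.8%), against 44.4% of all, and fewer at 0, against 1.90% of all. The remaining 16 loci had equal numbers, and 11 of them had no peak in either library (20.8%, against 39.9% of all genes). The median difference per locus was 1 peak for the guidance genes and 0 for all genes. In libraries from many cells, fewer cells with an open site and a less open site in each cell cannot be told apart.

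**Figure D1:**
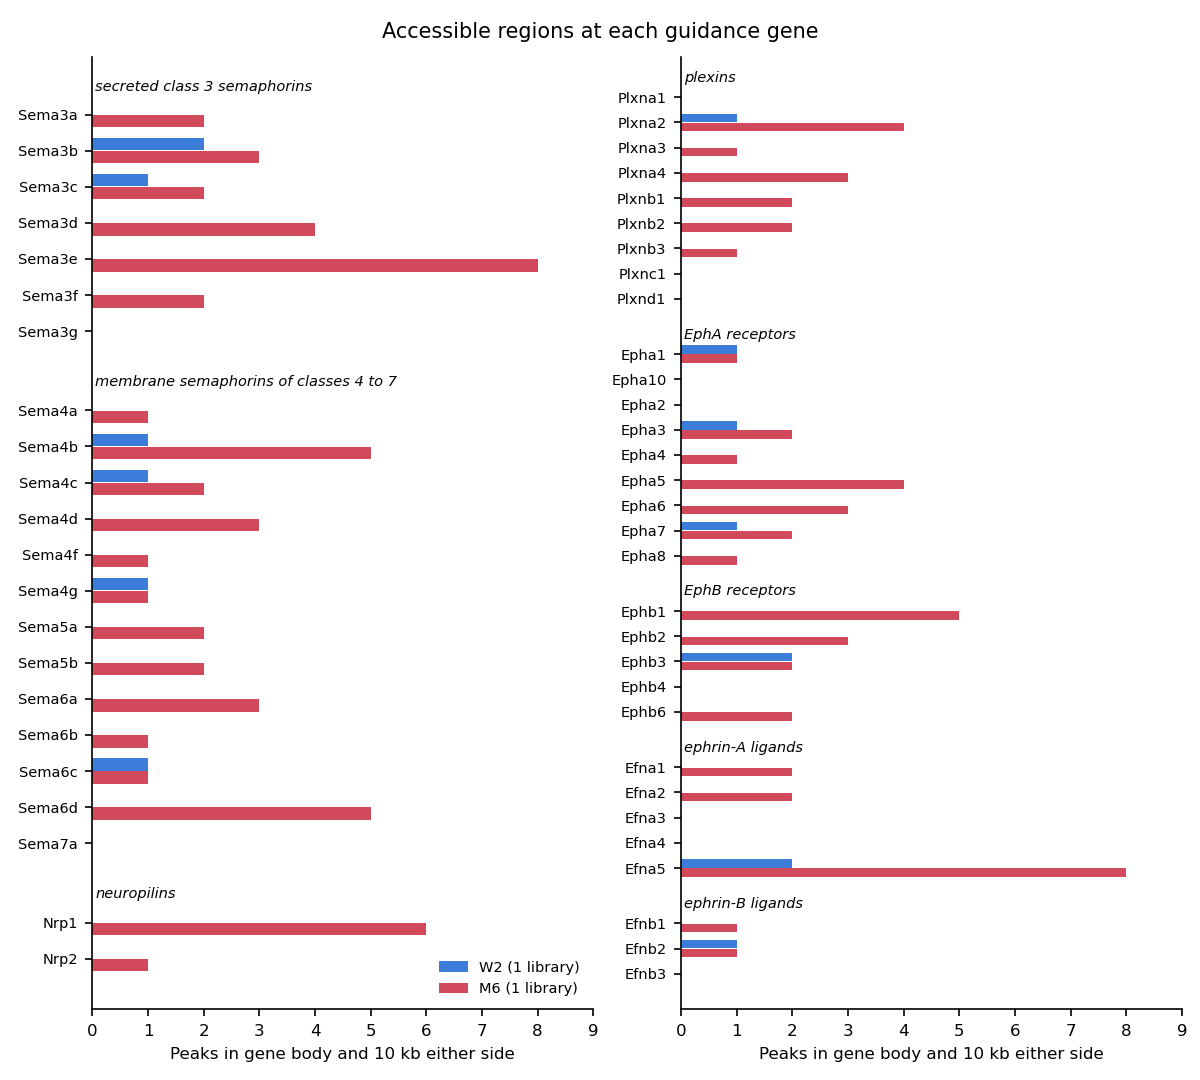
Number of peaks in the gene body and 10 kb on either side (horizontal axis) for each of the 53 guidance genes, grouped by role, with 1 library per bar (blue W2, red M6). Sema3e and Efna5 had the most M6 peaks, 8 each, and the 11 genes without bars had none in either library.

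Guidance genes over 100 kb had higher mean numbers of M6 peaks than the shorter ones. The guidance genes had a median length of 36.3 kb, against 17.2 kb for all protein-coding genes. If each guidance gene had the mean number of peaks of all genes in its length class, the 53 loci would hold 20.5 peaks in W2 and 92.3 in M6. The observed 16 and 108 give a ratio of 6.75 between the libraries, beside 4.5 at the class means and 3.94 for the whole lists. By class, the 14 guidance genes of 100 to 300 kb carried a mean of 3.36 M6 peaks against 2.17 for all genes of that length, and the 8 genes over 300 kb carried 3.25 against 4.11. The 14 genes of 20 to 100 kb had means of 1.07 and 1.2, and the 17 genes under 20 kb had 1.18 and 0.723. In W2 the class means of the guidance genes ran from 0.125 (over 300 kb) to 0.471 (under 20 kb). From the shortest class to the longest they were 0.471, 0.143, 0.357 and 0.125, against 0.292, 0.426, 0.456 and 0.401 for all genes. Over the joined loci of 8.08 Mb, the peak density was 1.98 per Mb in W2 (exact Poisson 95% interval 1.13 to 3.21), against 3.9 over the joined loci of all protein-coding genes. In M6 it was 13.4 per Mb (11 to 16.1), against 13.5.

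**Figure D2:**
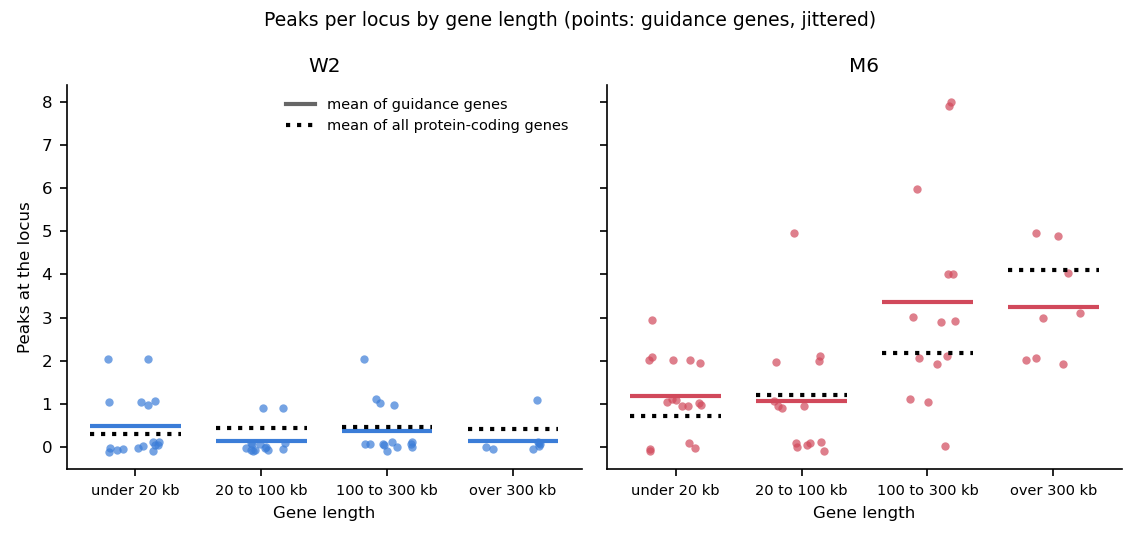
Peaks per locus (vertical axis) of the 53 guidance genes in 4 classes of gene length, for W2 (left) and M6 (right), with points moved slightly for visibility. Solid lines are means of the guidance genes and dotted lines means of all protein-coding genes, and in M6 the means of all genes rise in each class from 0.723 to 4.11, while those of the guidance genes are 1.18, 1.07, 3.36 and 3.25.

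With an equal number of peaks per list, the 5735 with the highest −log10 q, the gain at these loci was small. M6 then had 20 peaks against 16 in W2, at 17 loci (32.1%, against 27.4% of all genes) and 13 loci (24.5%, against 29.6%). There were more M6 peaks at 8 loci (15.1%, against 9.24% of all) and fewer at 6 (11.3%, against 12.6%). The 6 were Efna5, Epha3, Ephb3, Sema3b, Sema3c and Sema4g, each with 1 peak fewer, of which Efna5, Epha3, Sema3b and Sema3c had more M6 peaks with all peaks counted. None of the 6 Nrp1 peaks and 1 of the 8 Sema3e peaks were among the strongest 5735 of M6. The 20 peaks had a −log10 q of at least 10.8. At the class means of gene length the equal lists would give 20.5 peaks in W2 and 22.4 in M6. The other 88 M6 peaks at these loci ranked below that strength.

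The late gain lay inside gene bodies more than at gene starts. Of the 108 M6 peaks 60 (55.6%, 45.7 to 65.1%) lay inside a guidance gene and more than 1 kb from its ends and annotated starts, beside 39.5% of M6 peaks at all protein-coding loci. In W2 this was 1 of 16 peaks (6.25%, 0.158 to 30.2%), beside 19.5%. The shares inside genes were not matched for gene length, and guidance genes were longer than all genes (medians 36.3 and 17.2 kb). Peaks at gene ends or starts made up 33 of 108 in M6 (30.6%, beside 53.3%) and 7 of 16 in W2 (43.8%, beside 74.9%). These shares are not like for like. The guidance shares count ends of guidance genes only, and the shares at all loci count the end of any gene. Flank peaks at a neighbour's end would count as gene-end peaks by the latter rule. The other 8 W2 peaks were in the flanks, and 5 of these 8 sat at the end of a neighbouring gene, as did 9 of the 15 M6 flank peaks. For Epha1, Sema4b, Sema4c and Sema4g all W2 peaks were of this kind. They lay at Zyx, which encodes a focal adhesion protein, at Cib1 and Gdpgp1, at Ankrd39, and at Mrpl43 and Twnk, so that they cannot be assigned to the guidance gene.

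Every gene-start peak of W2 was found again in M6, and nearly all genes behaved alike. Over all genes with an annotated start, 3481 had a W2 start peak, and 3364 of these also had an M6 one. Within 1 kb of an annotated gene end, 7 of the 53 genes had a peak in W2 (13.2%, 5.48 to 25.3%), against 18.4% of all genes, and 22 in M6 (41.5%, 28.1 to 55.9%), against 39.7%. Both shares are close to the genome's. A gene-end peak in M6 alone was present at 15 genes (28.3%, against 21.9%). With equal numbers of peaks the M6 count was 6 (11.3%, against 16.5%). Annotated starts were given by RefSeq (GRCm38.p6, the assembly that mm10 names) for 47 members, the others being Efnb3, Plxna1, Plxna4, Sema3b, Sema3f and Sema6a. Of these 47 genes 7 had a W2 peak within 1 kb of a start (14.9%, against 19.9% of genes with an entry) and 23 an M6 peak (48.9%, 34.1 to 63.9%, against 42.3%). The 7 were Sema3c, Sema6c, Plxna2, Epha3, Epha7, Ephb3 and Efnb2, of which 3 are Eph receptors.

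The median guidance promoter was rich in CG pairs, also among those without a peak. In the 300 bases around a start (250 before and 50 after), the 21 guidance promoters overlapped by an M6 peak had a median GC content of 64.7% and a ratio of observed to expected CG pairs of 0.727. The 40 promoters without one had 63.8% and 0.601. Over all protein-coding genes these medians were 62.7% and 0.806 for the 7582 promoters with an M6 peak, but 51.7% and 0.314 for the 13680 without. The 10 promoters of the 9 members with an entry and no locus peak in either library had medians of 65% and 0.677. The 250 bases before the start are given for 5 genes to show this range, on the strand of the gene, from RefSeq on GRCm38.p6, with each CG pair in capitals. Sema6c (chr3:95160170-95160419, plus strand, 15 CG pairs) had a start peak in both libraries and the strongest M6 peak of all guidance loci, and Plxna2 (chr1:194619579-194619828, plus strand, 18 CG pairs) a start peak in both. Sema4f (chr6:82939770-82940019, minus strand, 4 CG pairs), picked after its values were seen, had the strongest start peak of M6 without a W2 counterpart. Plxnd1 (chr6:115995006-115995255, minus strand, 16 CG pairs) and Sema7a (chr9:57939862-57940111, plus strand, 17 CG pairs), also picked after their values were seen, had no locus peak in either library.
Sema6c: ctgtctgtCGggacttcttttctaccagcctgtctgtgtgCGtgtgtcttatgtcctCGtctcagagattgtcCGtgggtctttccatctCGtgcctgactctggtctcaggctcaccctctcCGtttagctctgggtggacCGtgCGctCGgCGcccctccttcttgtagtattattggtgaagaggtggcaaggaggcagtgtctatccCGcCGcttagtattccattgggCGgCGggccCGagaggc
Plxna2: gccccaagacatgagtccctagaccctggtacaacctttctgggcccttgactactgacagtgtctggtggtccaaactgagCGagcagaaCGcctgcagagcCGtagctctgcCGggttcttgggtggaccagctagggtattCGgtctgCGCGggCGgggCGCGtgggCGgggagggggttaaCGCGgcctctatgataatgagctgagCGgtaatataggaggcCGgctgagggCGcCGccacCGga
Sema4f: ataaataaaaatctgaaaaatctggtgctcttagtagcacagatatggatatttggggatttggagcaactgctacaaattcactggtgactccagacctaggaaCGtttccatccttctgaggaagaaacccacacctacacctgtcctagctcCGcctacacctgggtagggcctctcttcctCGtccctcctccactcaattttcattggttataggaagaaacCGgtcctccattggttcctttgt
Plxnd1: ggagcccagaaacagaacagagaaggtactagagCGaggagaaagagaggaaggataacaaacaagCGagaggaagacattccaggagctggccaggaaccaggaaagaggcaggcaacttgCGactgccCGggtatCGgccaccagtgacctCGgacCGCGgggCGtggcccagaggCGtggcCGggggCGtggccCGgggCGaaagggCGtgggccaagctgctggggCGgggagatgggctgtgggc
Sema7a: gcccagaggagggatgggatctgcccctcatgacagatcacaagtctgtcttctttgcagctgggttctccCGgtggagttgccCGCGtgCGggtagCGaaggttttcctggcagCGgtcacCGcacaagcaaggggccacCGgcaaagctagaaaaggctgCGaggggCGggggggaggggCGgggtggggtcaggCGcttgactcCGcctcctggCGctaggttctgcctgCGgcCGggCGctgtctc
The sequences of Plxnd1 and Sema7a, without any peak, hold about as many CG pairs as those of Sema6c and Plxna2, while that of Sema4f holds the fewest of the 5.

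**Figure D3:**
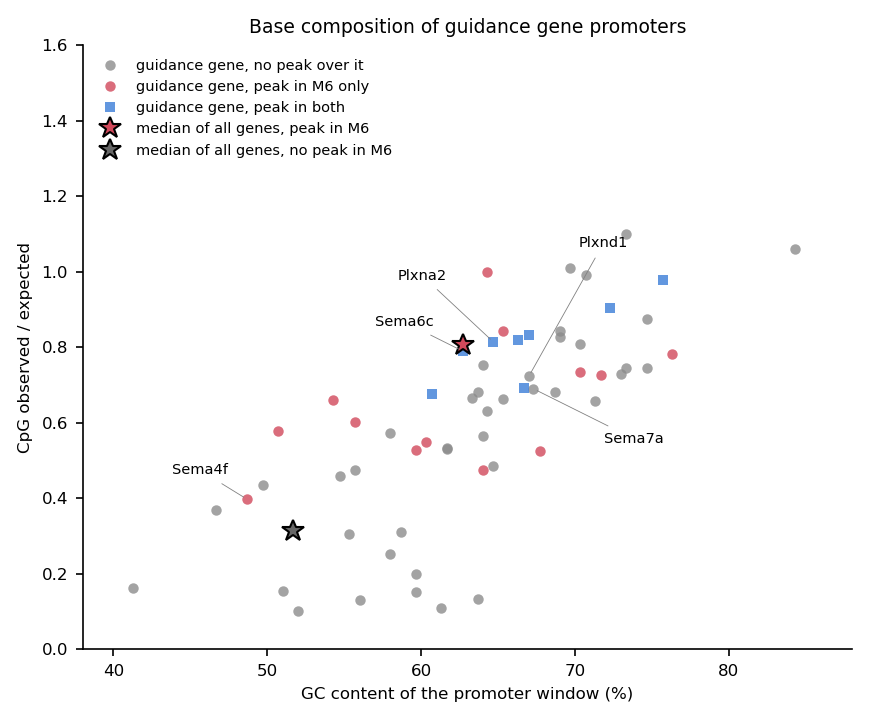
GC content (horizontal axis, %) against the ratio of observed to expected CG pairs (vertical axis) in the promoter windows of the guidance genes, 1 point per annotated promoter, by whether a peak overlapped it. Stars are medians over all protein-coding promoters with (0.806) and without (0.314) an M6 peak, and many guidance promoters without a peak lie well above the lower star.

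Motifs were searched in these windows on both strands. GGGCGG, the GC box, was found in 46 of 61 guidance promoters (75.4%), against 46.2% of the 21262 promoters of all protein-coding genes. It was in 81% of guidance promoters with an M6 peak (72.2% of all such promoters) and in 72.5% of those without (31.8% of all). CAGCTG, an E-box, was in 14.8% of guidance promoters and 15.6% of all, and CACGTG, another E-box, in 6.56% and 7.84%. TGACTCA, an AP-1 motif searched together with its reverse complement TGAGTCA, was in 3.28% and 4.66%, and TGACGTCA, the CRE motif, in 1.64% and 2.23%. TGTTTAC, a forkhead motif, was in 0 of 61 and 3.01% of all, and the palindromic nuclear factor I motif in 0 of 61 and 0.0329%. The GC box holds a CG pair, and the GC box and both E-boxes can each lie across the unfixed spacer of the nuclear factor I motif.

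Among the secreted class 3 semaphorins, 7 genes with 3 peaks in W2 and 21 in M6, Sema3e stood highest. Sema3e, a ligand that binds Plxnd1 and is known for repelling growing vessels, had 0 peaks in W2 and 8 in M6. Its M6 pileups ran from 16 to 33 tags, and the strongest peak, 6.91 kb downstream of the start (chromosome 5, 14032034 to 14032418), had 33 tags, a fold of 5.45 over local background and a −log10 q of 12.5. It had 5 of its 8 peaks within 22.9 kb of the start. Plxnd1, its receptor, had no peak in either library. Sema3d, a relative of Sema3e, had 0 and 4 peaks, with M6 pileups of 17 tags at the start and 21, 22 and 22 tags in the gene body. Sema3c, a class 3 ligand with a role in heart outflow development, had a start peak in both libraries, with 16 tags in W2 and 20 in M6. Its second M6 peak, 1.41 kb downstream, had 22 tags. Sema3a, the prototype axon repellent, had 0 and 2 peaks, with M6 pileups of 17 and 13 tags.

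The other class 3 genes had mostly weak or flanking peaks. Sema3b had 2 peaks in W2 and 3 in M6. The Sema3b peak strongest in M6, with 22 tags in W2 and 38 in M6, sat at the ends of the neighbouring Hyal3 and Ifrd2. Another flank peak had 22 and 25 tags, and its −log10 q in W2 was 6.85, beside 6.25 at the former. The 1 inside the gene was in M6 alone, with 19 tags. Sema3f, a ligand for Nrp2, had 0 and 2, the stronger with 22 tags. Sema3g had none in either. Sema3a, Sema3c, Sema3d and Sema3e lie on chromosome 5 between 12373161 and 17740268 (flanks included), a stretch of 5.37 Mb with 3 peaks in W2 and 39 in M6. At 7.27 M6 peaks per Mb the stretch was below the 9.28 of chromosome 5 as a whole, both counted with the DNA between genes. The 4 loci alone had 13.9 per Mb, near the 13.5 over the joined loci of all protein-coding genes.

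The membrane semaphorins, 13 genes, had 4 peaks in W2 and 27 in M6. Sema6c, a membrane ligand of the class that binds A-type plexins, had the strongest M6 peak of any guidance locus (chromosome 3, 95160005 to 95160557). It lay over the start shown above in both libraries, where W2 had 19 tags and M6 42, with a fold of 4.78 and 8.7 and a −log10 q of 5.82 and 24.2, which placed it 678th in the M6 list. Sema6d, a ligand of Plxna1 in heart and nerve, had 0 and 5 peaks. Its pileups in M6 were 13 tags at the start and 27, 13, 35 and 21 tags along the gene, and the peak of 35 tags (chromosome 2, 124506118 to 124506476, −log10 q 16.2) was among the 3 M6-only peaks at or above 32 tags. Sema6a had 0 and 3 peaks, of 16, 28 and 30 tags, and Sema6b had 1 M6 peak, at the end of Plin5.

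Class 4 genes held peaks of their own, peaks at a neighbour's end, or both. Sema4d, which binds Plxnb1 and acts in immune cells and axons, had 0 peaks in W2 and 3 in M6, of 16, 28 and 31 tags. The peak of 31 tags, inside the gene (chromosome 13, 51777039 to 51777439), had a −log10 q of 16.9, and that of 28 tags lay 0.546 kb from a start. Sema4b had 1 and 5 peaks. The peak of Sema4b found in both libraries was that at Cib1 and Gdpgp1, with 22 and 36 tags, while its 4 M6-only peaks had 15 to 22 tags. Sema4f, picked after its values were seen, had 0 and 1, a start peak of 28 tags (chromosome 6, 82939600 to 82939872) with a −log10 q of 14.2. The peak at Sema4c that was shared, at Ankrd39, had 29 tags in W2 and 45 in M6, and a second one near a Sema4c start, in M6 alone, had 24. The single peak at Sema4g, at Mrpl43 and Twnk, had 12 and 26 tags, and that of Sema4a, in M6 alone at its 3′ edge, 15. Sema5a had 0 and 2 peaks of 19 and 18 tags, and Sema5b 0 and 2, both of 14 tags. Sema7a, a lipid-anchored semaphorin whose receptor is Plxnc1, had none in either library, and neither had Plxnc1.

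Receptors of the semaphorins had 1 peak in W2 and 20 in M6. Nrp1, a co-receptor for class 3 semaphorins and for vascular endothelial growth factor, had 0 peaks in W2 and 6 in M6. Of these, 3 lay just before the start, at -1.54, -1.19 and -0.246 kb, with 19, 25 and 22 tags. The other 3 were in the gene, 11.7, 41.5 and 124 kb downstream, with 24, 15 and 19 tags. Nrp2 had 0 and 1 peak, of 17 tags. Endothelial cells also use Nrp1, so their markers are given beside it. Of 8 endothelial genes, 0 had a gene-end peak in either library, 2 had a locus peak in W2 (Tek and Vwf) and 4 in M6 (with Pecam1 and Erg), from 2 and 9 peaks in all. Over all protein-coding genes the shares with a locus peak were 29.6% and 59.1%, and those with a gene-end peak 18.4% and 39.7%. Cdh5, Kdr, Tie1 and Emcn had none in either, and the part of such cells in the Nrp1 peaks was not tested.

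**Figure D4:**
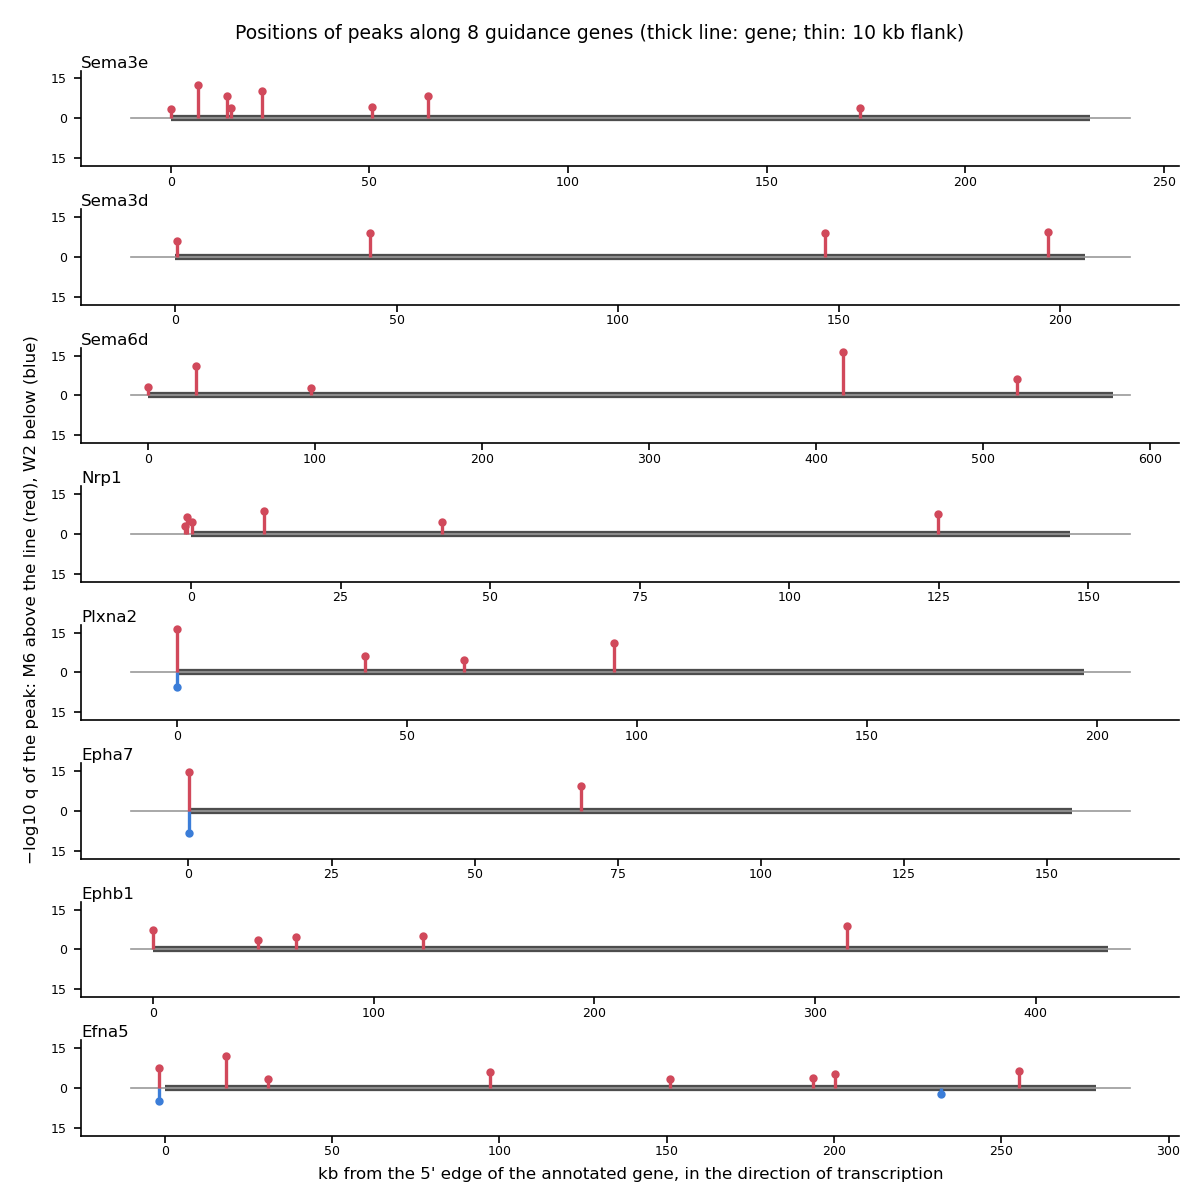
Peak summits along 8 guidance genes by distance in kb from the 5′ edge of the annotated gene (horizontal axis), with the height of each line giving the −log10 q of the peak, M6 above the gene in red and W2 below in blue. W2 lines appear at the starts of Plxna2 and Epha7 and at 2 places of Efna5, and M6 lines along all 8 genes.

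Plexins, 9 genes, had 1 peak in W2 and 13 in M6. Plxna2, a receptor for class 3 semaphorins with a neuropilin and for class 6 semaphorins alone, held the 1 in W2. Its start peak had 19 tags in W2 and 38 in M6, with a −log10 q of 5.36 and 16.2, and 3 more M6 peaks lay 40.8, 62.4 and 95 kb inside the gene, with 17, 17 and 27 tags. Plxna4, an axon guidance receptor for Sema3a, had 0 and 3 peaks, of 19, 32 and 15 tags. The peak of 32 tags at Plxna4 (chromosome 6, 32314910 to 32315407) had a fold of 7.5 and a −log10 q of 16.8. Plxna3, Plxnb1, Plxnb2 and Plxnb3 had 0 W2 peaks and 1 or 2 M6 peaks each, with 15 to 28 tags, and the stronger of Plxnb1 was also at the end of Ccdc51. Plxna1, Plxnc1 and Plxnd1 had none in either library.

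The EphA receptors, 9 genes, had 3 W2 and 14 M6 peaks, and the EphB receptors, 5 genes, 2 and 12. Epha7, known for its part in topographic maps of the brain, had a start peak of 24 tags in W2 and of 41 in M6, with a further M6 peak of 25 tags 68.4 kb into the gene. Ephb3, a receptor that positions cells in the intestinal crypt, had a start peak of 29 tags in W2 and 47 in M6, the highest pileup at any guidance locus. Its second shared peak, in the flank 22 kb from the start, had 27 tags in both. Epha3 had a weak start peak, with 14 and 16 tags, and an M6 peak of 13 tags in its body. Ephb1, a neuronal receptor for ephrin-B ligands, had 0 and 5 peaks. That at the start of Ephb1 had 24 tags, and the others, in the body, 14 to 21. Epha5, which guides axons in the forebrain, had 0 and 4, of 19, 16, 19 and 20 tags, the last 2 at its start and also at the end of the neighbouring Gm42163.

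At the other Eph receptors the M6 peaks had no W2 counterpart, or lay at a neighbour. Epha6 had 3, of which that of 28 tags sat at the end of Arl6 and those of 16 and 18 tags at an Epha6 start. Ephb2, a receptor in gut and nerve, had 3 M6 peaks inside the gene, of 30, 20 and 19 tags, and Ephb6, a receptor without kinase activity, 2 near its start, of 30 and 26 tags. Epha8 had 1 of 26 tags in its flank and Epha4 1 of 18 tags at -1.39 kb from its start. The single Epha1 peak, at Zyx, had 30 tags in W2 and 42 in M6. Epha2, an Eph receptor of many epithelia, Epha10 and Ephb4, the venous receptor for ephrin-B2, had none in either library.

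Ephrins, the ligands, were led by a single long gene. Efna5, an ephrin-A that repels axons in the visual map, had 2 peaks in W2 and 8 in M6, but 2 and 1 with equal numbers of peaks per list. The shared peak of Efna5, at -1.81 kb from the start in M6, had 17 tags in W2 and 31 in M6, and 7 M6-only peaks of 13 to 26 tags lay inside the gene. Efna5 also held the 1 W2 peak of all guidance loci without an M6 counterpart (chromosome 17, 62649266 to 62649466), with 13 tags and a −log10 q of 2.29. Efnb2, which marks arteries and binds Ephb4, had a start peak in both libraries, with 22 tags in W2 and 40 in M6. Efnb1 had 1 start peak of 24 tags in M6 alone. Efna1, a ligand of Epha2, had 0 and 2 peaks, of 17 tags at the end of Dpm3 and 24 tags inside the gene. Efna2 had 0 and 2, of 22 and 20 tags, the former at the ends of Cirbp and Fam174c. Efna3, Efna4 and Efnb3 had none in either.

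Sites present in both libraries mostly had a higher summit pileup in M6, at these loci as elsewhere. Of the 16 W2 peaks 15 (93.8%, 69.8 to 99.8%) overlapped an M6 peak, beside 84.8% of W2 peaks at all protein-coding loci. At these 15 sites the median pileup was 22 tags in W2 and 38 in M6, and the median log2 ratio was 0.71, with a range from 0.00 at the Ephb3 flank to 1.14 at Sema6c. The ratio was above 0 at 14 of the 15. Over all 4618 shared W2 sites the median log2 ratio was 0.55, and 85.8% were above 0. As fold over local background the member median was a log2 ratio of 0.28, with 10 sites higher in M6 and 5 lower, beside 0.26 for all shared sites. The 10 higher sites included all 5 at the end of a neighbouring gene, which cannot be assigned to a guidance gene. These lay at Zyx, at Hyal3 and Ifrd2, at Cib1 and Gdpgp1, at Ankrd39, and at Mrpl43 and Twnk. Epha7, for example, had a fold of 5.25 in W2 and 5.2 in M6 while its pileup was 24 and 41 tags. No peak at these loci had a raised local background, the highest being 7.64 tags in M6 and 5.04 in W2.

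**Figure D5:**
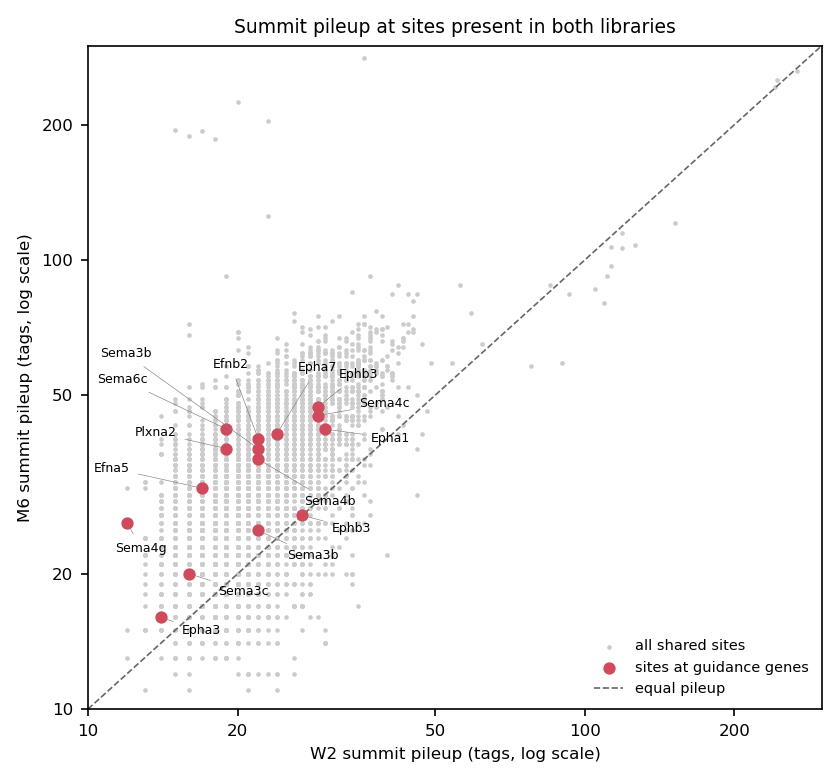
Summit pileup in tags of W2 (horizontal axis, log scale) and M6 (vertical axis, log scale) at the 4618 shared W2 sites (grey) and the 15 at guidance genes (red, named). Of the red points 14 lie above the dashed line of equal pileup and the Ephb3 flank site lies on it.

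Most M6 peaks at guidance genes had no W2 counterpart, and these were of modest height. Of the 108 M6 peaks 93 overlapped no W2 peak and 15 did (13.9%, 7.99 to 21.9%), beside 24.2% with a counterpart at all protein-coding loci. The 93 had a median pileup of 19 tags and a range from 13 to 35. At 3 of them, inside Sema6d, Sema3e and Plxna4, it reached 32 tags, the median M6 pileup of all shared sites. Taken by strength, the share with a counterpart rose from 2.5% of 40 member peaks with a −log10 q under 5 (5.32% at all loci) to 9.3% of 43 from 5 to 10 (14.6%), 20% of 15 from 10 to 15 (38%) and 70% of 10 from 15 up (72.5%). The exact intervals of the member shares, 0.0633 to 13.2%, 2.59 to 22.1%, 4.33 to 48.1% and 34.8 to 93.3%, each include the value at all loci. With 10 to 43 peaks per class they are wide and cannot show that the shares are equal. The interval over all 108 peaks, 7.99 to 21.9%, lies below the 24.2% at all loci. The median −log10 q of all member M6 peaks was 5.89, beside 6.99 at all protein-coding loci.

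Signalling partners of these receptors also had more peaks in M6. Of 55 genes that act downstream of or beside plexins and Eph receptors, 25 had a locus peak in W2 and 50 in M6, beside 29.6% and 59.1% of all protein-coding genes. A gene-end peak was found at 16 and 32 of the 55, beside 18.4% and 39.7% of all. Over their loci there were 3.45 peaks per Mb in W2 and 17.4 in M6, beside 1.98 and 13.4 at the guidance genes. Over the joined loci of all protein-coding genes these densities were 3.9 and 13.5. The counts of partner genes were not matched for gene length. More peaks in M6 were found at 40 of the 55, beside 44.4% of all genes, and fewer at 2, beside 1.90%. These were Fes, a tyrosine kinase, with 1 and 0, and Ngef, an exchange factor bound by EphA receptors, with 3 and 2. The median difference was 1 peak, as for the guidance genes, and with equal numbers of peaks the 55 loci held 31 in W2 and 38 in M6. Peripheral nerve and glia markers, another possible source of guidance genes in tumor tissue, had 1 W2 and 8 M6 peaks over 8 loci, 5 of the 8 at Tubb3. Those with none in either library included Sox10, Stmn2 and Gap43. Over 5 fibroblast genes there were 0 W2 and 2 M6 peaks, over 3 smooth muscle genes 0 and 1, and over 5 leukocyte genes 1 and 3, all at Cd68. The part of such cells in the guidance peaks was not tested.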

How the data were processed

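ATAC-seq libraries from W2 and M6 cells, 1 each, were compared over 53 guidance genes. Per the labels' protocols, nuclei were freed with a digitonin buffer and a commercial kit was used for the libraries. The tools named are deepTools, Bowtie2, SAMtools 1.4 and Trim Galore 0.5.0, with the build mm10, per the submitters' processing notes. The sources used here do not name the peak caller or its threshold, nor say whether duplicates were removed or reads shifted for the enzyme. The authors deposited 1 peak list per library. The deposited fold, a ratio on a linear scale, compares the summit with its local background. The −log10 p and −log10 q deposited for each peak come from the authors' caller, and the score the authors deposited, about 10 times the −log10 q, was not used. These are the authors' own values per peak and served to describe and rank peaks within a list.

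Pileup and local background were recovered from fold and −log10 p, with 1 added to both parts of the fold and a Poisson upper tail for the p. This gave a whole number for 100% of peaks within 0.001 of the −log10 p. The step was tested on simulated data. Python 3.11.15, pandas 2.3.3, numpy 2.4.6 and scipy 1.17.1 were used. Peaks on other sequences (30 in W2, 24 in M6) were left out. Overlap meant at least 1 bp. Genes came from RefSeq GRCm38.p6, whose table has no exons, so exons and introns were not analysed here. Intervals are exact (Clopper-Pearson or Poisson) at 95%. The rule gave full values to members with a W2 peak, the 12 with the most M6 peaks and the 12 with the strongest. Single values of some marker genes are not reported here. The members and lists were chosen with earlier results of these data known.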

Additional observations from a re-analysis of the deposited data

How the results depend on the processing

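No paired analysis was possible because each time point had 1 library, and for the same reason no replicate could be left out. With equal numbers of peaks by −log10 q, 17 guidance genes had an M6 locus peak, from 20 peaks or 2.47 per Mb, with more in M6 at 8 loci and fewer at 6, and 6 genes had an M6 gene-end peak. Shared shares were then 56.2% of W2 and 45% of M6 peaks. The difference turned from above 0 to -1 at Efna5, Epha3, Sema3b and Sema3c, and went from 0 to -1 at Ephb3 and Sema4g. Ranked by fold, these counts were 14 genes, 16 peaks, 1.98 per Mb, 7, 8 and 3, and the difference turned from above 0 to -1 at Efna5, Epha3, Epha7, Sema3b and Sema3c, and went from 0 to -1 at Efnb2 and Sema4g and to -2 at Ephb3. At a −log10 q of at least 5, M6 had 68 peaks, 8.41 per Mb and 14 genes with a gene-end peak, and 100% of W2 peaks were shared. In gene bodies alone W2 had 7 peaks at 7 genes, 0.995 per Mb. With flanks of 50 kb W2 had 48 peaks at 28 genes, 3.95 per Mb, M6 had 195, and 1 gene had fewer. The log2 ratio at shared sites was 0.28 by fold. Without peaks of raised background, or without peaks at ends of other genes, the counts over the guidance genes moved by less than 1.5 times. Both lists leave out weak sites, and their sequencing depth is unknown here.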

Other observations

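Among the signalling partners, 4 long genes with many M6 peaks, named after their values were seen, were Grip1 and Anks1b with 14 each, Farp1 with 13 and Mical3 with 12. Grip1 encodes a scaffold that binds ephrin-B and EphB tails, Anks1b a scaffold related to an Eph receptor adaptor, Farp1 an exchange factor that acts with class A plexins, and Mical3 an enzyme of the family that takes actin filaments apart downstream of plexins. In W2 these genes had 1, 0, 1 and 3 peaks. Gene-end peaks in both libraries were found at 16 of the 55 partners, beside 17.8% of all protein-coding genes. Of these 16, Adam10, Limk1 and Abl1 were also named after their values were seen. Adam10, the protease that sheds ephrin-A ligands, had 1 such peak in W2 (−log10 q 5.55) and 1 in M6 (22.6), and the strongest peak of Limk1, which phosphorylates cofilin, had 9.43 and 18.9. That of Abl1, a kinase downstream of Eph receptors, had 9.59 and 21.1.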
